A study of Mus musculus with 19 samples.

Results

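Mouse embryonic stem cells (ESCs) grown in media that hold a Mek inhibitor were compared with ESCs grown in media without one. The comparison used 10 of the 19 RNA-seq libraries of the series, those of passages 7 and 10, chosen by the medium in their labels. With Mek inhibitor there were 4 libraries: ESC lines J-34 and J-35 in 2i/L at passage 10, and lines J-34 and J-37 in S/L+PD at passage 7. Without it there were 6 libraries, all at passage 10: J-34 and J-35 in a2i/L, J-34 and J-37 in PKCi/L, and J-34 and J-35 in S/L. Cells entered their medium at passage 4, so S/L+PD had been applied for 3 passages and the other media for 6. All lines are labelled male, were passaged on layers of mouse embryonic fibroblast feeders and were sorted for the surface antigen SSEA1 before RNA extraction. No genotype or strain is used here. Genes were reported where every library with Mek inhibitor lay above, or every one below, all 6 libraries without it. Of 12942 genes, 2086 (16.1%) were separated in this way.

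Mek is the kinase that activates ERK, the last kinase of the cascade that carries signals from FGF and other growth factor receptors. ERK switches on a set of its own inhibitors, among them Sprouty proteins and dual-specificity phosphatases, so the RNA of these genes is widely used to read the activity of the cascade. In mouse ESCs FGF and ERK signalling promotes exit from naive pluripotency, and Mek inhibition is used to hold the cells in the naive state. The labels give the media by name only, and their contents are stated here as background, from the usual meaning of these names. The 2i/L medium joins a Mek inhibitor (PD) and a Gsk3 inhibitor with the cytokine LIF, S/L is serum with LIF, and S/L+PD is S/L with the Mek inhibitor. The a2i/L medium keeps the Gsk3 inhibitor but replaces the Mek inhibitor with a Src inhibitor, and PKCi/L holds an inhibitor of protein kinase C. Within the comparison, S/L+PD against S/L and 2i/L against a2i/L are 2 pairs that share no library. The first differs by PD and by 3 passages, the second by the exchange of the Mek for the Src inhibitor.

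Mek inhibitor media are known for low DNA methylation, which acts on CpG sites, so the 250 bases before the start of 4 genes of the comparison are shown with each CpG in capitals. Dusp6 is an ERK feedback gene that was lower with Mek inhibitor, Dazl and Tuba3a are germline genes that were higher, and Aspa was among the higher genes with the widest separation. Sequences are from RefSeq on GRCm38.p6, each read 5′ to 3′ on the strand of its gene.
Dusp6, chr10:99262981-99263230, plus strand: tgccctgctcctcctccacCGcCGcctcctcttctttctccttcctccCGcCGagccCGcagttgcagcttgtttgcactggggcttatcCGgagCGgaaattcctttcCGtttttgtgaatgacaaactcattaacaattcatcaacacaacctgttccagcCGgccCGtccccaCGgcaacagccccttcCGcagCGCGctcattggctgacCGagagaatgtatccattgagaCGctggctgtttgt
Dazl, chr17:50293621-50293870, minus strand: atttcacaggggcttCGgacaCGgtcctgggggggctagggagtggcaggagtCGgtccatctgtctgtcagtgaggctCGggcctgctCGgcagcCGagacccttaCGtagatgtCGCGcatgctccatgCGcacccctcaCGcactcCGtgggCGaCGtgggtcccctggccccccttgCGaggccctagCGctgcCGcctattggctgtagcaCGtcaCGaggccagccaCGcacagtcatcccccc
Tuba3a, chr6:125286082-125286331, minus strand: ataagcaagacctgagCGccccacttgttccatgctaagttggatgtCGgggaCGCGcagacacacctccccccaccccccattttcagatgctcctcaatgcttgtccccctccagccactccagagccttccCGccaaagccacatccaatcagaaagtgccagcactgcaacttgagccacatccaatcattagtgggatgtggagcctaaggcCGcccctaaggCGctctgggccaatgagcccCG
Aspa, chr11:73324638-73324887, minus strand: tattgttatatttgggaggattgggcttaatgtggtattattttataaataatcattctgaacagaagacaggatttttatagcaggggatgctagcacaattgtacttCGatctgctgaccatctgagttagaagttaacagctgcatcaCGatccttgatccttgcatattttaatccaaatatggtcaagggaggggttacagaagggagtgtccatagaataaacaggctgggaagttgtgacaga
These windows hold 16 CpG sites for Dusp6, 20 for Dazl, 8 for Tuba3a and 2 for Aspa. Over all 32851 RefSeq windows of the same length the median was 6 sites, with quartiles of 2 and 16. The genes shown thus range from CpG-rich to CpG-poor, and methylation itself was not measured in these libraries.

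The 10 libraries had an estimated 33.9 to 45.5 M reads each, read from the steps between low values. The deposited values are CPM, reads scaled to the library total, and the listed genes summed to 421426 to 465897 CPM per library. Libraries of the same medium and passage correlated at 0.989 to 0.995 (Pearson r of log2(CPM + 0.5), 14 pairs). Of the factors that define ESCs, Pou5f1 had 321 to 554 CPM and Sox2 had 176 to 235 CPM over the 10 libraries. The J-37 libraries, 1 each in S/L+PD and PKCi/L, carry that line in their titles, whereas the label on how they were derived says J-35. Nothing in the labels says whether libraries of different lines were prepared apart. The p-values measure the spread between libraries of the same medium and passage, pooled over all 19 libraries, and not the spread between media. Fold changes below are log2 differences of CPM + 0.5 ± standard error from 1 limma fit, a scale that understates the change of genes with low CPM. "Rose" and "fell" stand for an adjusted p under 0.05 over all 12942 genes.

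In all, 1350 genes (10.4%) lay higher and 736 (5.69%) lower in every library with Mek inhibitor. After TMM scaling, which sets the median change of all genes to about 0, there were 1153 higher and 1098 lower, and 1118 and 712 were separated on both scales. The separation was at least 1 log2 unit wide for 106 higher genes (0.819%) and 30 lower genes (0.232%). The average over media, with 2i/L and S/L+PD on one side and a2i/L, PKCi/L and S/L on the other, called 3920 genes higher (30.3%) and 2197 lower (17%) by limma. With TMM scaling these calls were 3703 and 3669. For the counts by pair of media given below, 16.4% of all genes rose and 19.3% fell in S/L+PD against S/L. In 2i/L against a2i/L 23.9% of all genes rose and 11.8% fell. Separation and average come from the same libraries, so fold changes of separated genes give their size and are no further evidence for them. At the edge of the rule, the higher gene Fam33a was separated by 0.000573 and the lower gene Nol9 by 0.000237 log2 units, while Cenpa, Plekhh1, Gnptg and Iffo2 lay just outside, with equal values at the edge of both sides.

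The feedback inhibitors of ERK were lower in the media with Mek inhibitor, Spry4 most of all. Of 14 measured members 9 fell on average, 3 rose and 2 did not pass, with a median change of -0.58, against 17% fallen, 30.3% risen and a median of 0.07 over all genes. In S/L+PD against S/L 9 fell and 1 rose, against 19.3% and 16.4% of all genes, and in 2i/L against a2i/L 5 fell and 1 rose, against 11.8% and 23.9%. Of the same 14, 5 were separated as lower and 1 as higher, against 5.69% and 10.4% of all genes. Spry4, a Sprouty inhibitor of receptor tyrosine kinase signalling, had 0.2 and 0.11 CPM in 2i/L and 0.71 and 0.32 CPM in S/L+PD, against 32.98 and 19.9 CPM in a2i/L, 72.1 and 52.2 CPM in PKCi/L and 79.4 and 88.5 CPM in S/L. Every library with Mek inhibitor held less than 1 CPM and every library without it at least 19.9 CPM, a gap of 4.07 log2 units (-5.99 ± 0.14). Dusp6, a phosphatase that inactivates ERK, had 3.1 and 3.3 CPM in 2i/L and 13.8 and 8.95 CPM in S/L+PD, against 24.98 and 18.1 CPM in a2i/L, 57.99 and 54 CPM in PKCi/L and 61.9 and 67.3 CPM in S/L (-2.72 ± 0.12). Its levels in S/L+PD lay between those of 2i/L and a2i/L, and the sides were 0.38 log2 units apart.

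Spry2 had 19.96 and 21.2 CPM in 2i/L and 22.8 and 17.8 CPM in S/L+PD, against 48.1 and 41.9 CPM in a2i/L, 66.8 and 56.4 CPM in PKCi/L and 53.8 and 60.9 CPM in S/L (-1.39 ± 0.11). Spry1 had 5.3 and 6.16 CPM in 2i/L and 5.87 and 5.49 CPM in S/L+PD, against 10.03 and 9.72 CPM in a2i/L, 10.04 and 9.8 CPM in PKCi/L and 10.6 and 10.7 CPM in S/L (-0.78 ± 0.12). Both Sprouty genes lay at about the same level in 2i/L and S/L+PD, below each of the other media. Spred1, a Sprouty-related inhibitor of Ras signalling, had 30.7 and 30.7 CPM in 2i/L and 22.3 and 20.3 CPM in S/L+PD, against 44.1 and 37.1 CPM in a2i/L, 54.2 and 41.7 CPM in PKCi/L and 71.7 and 74.6 CPM in S/L (-1.01 ± 0.11). It was lowest in S/L+PD, and 2i/L and a2i/L were 0.27 log2 units apart. Lrig1, an inhibitor of EGF family receptors, went the other way with 42.1 and 39.4 CPM in 2i/L and 19.8 and 19.7 CPM in S/L+PD, against 16.4 and 16.7 CPM in a2i/L, 18.5 and 13.9 CPM in PKCi/L and 5.59 and 6.12 CPM in S/L (1.25 ± 0.11). It was highest in 2i/L, while S/L+PD lay just above the highest PKCi/L library. Dusp4, Dusp9, Spred2 and Il17rd fell on average but overlapped between the sides, and Dusp5 and Errfi1 rose and overlapped.

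**Figure D1:**
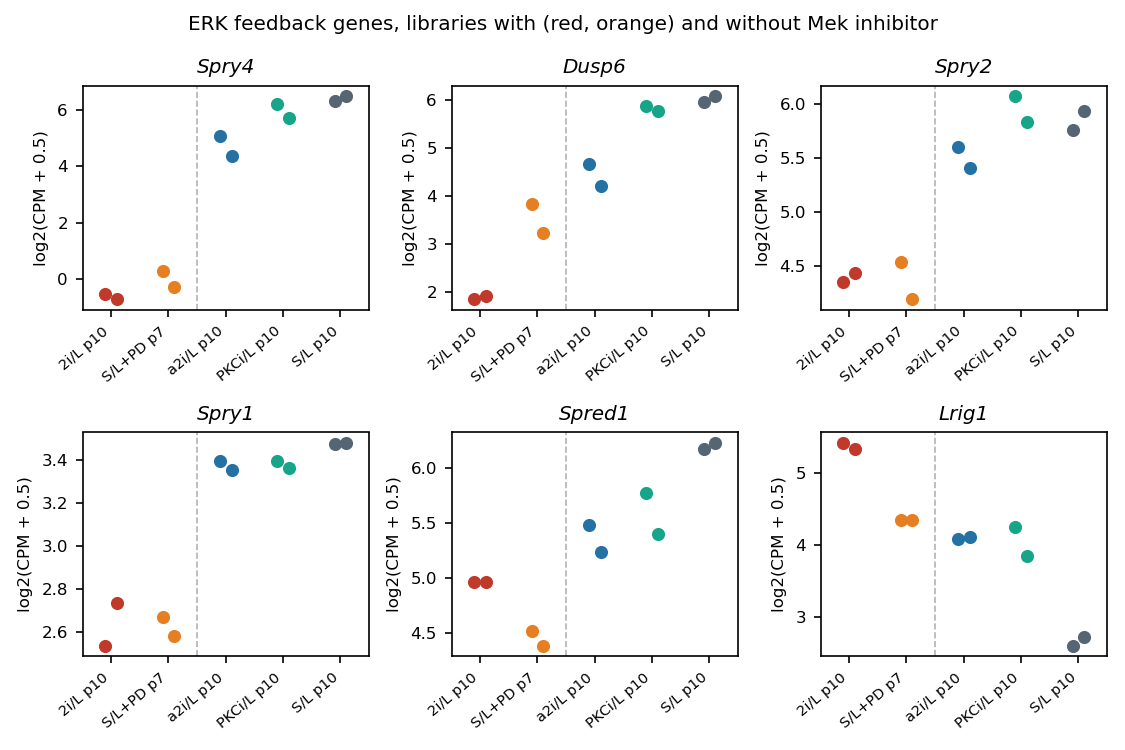
Level of 6 ERK feedback genes as log2(CPM + 0.5) (vertical axis) in each library, by medium, with the media that hold Mek inhibitor left of the dashed line. Each point is 1 library; Spry4, Dusp6, Spry2, Spry1 and Spred1 lie lower and Lrig1 higher in all 4 libraries with Mek inhibitor.

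The transcription factors that ERK induces moved in opposite directions in the 2 pairs. Of 16 measured, 11 rose and 4 fell in S/L+PD against S/L (median 1.15), while 1 rose and 11 fell in 2i/L against a2i/L (median -0.88). The difference between the pairs passed as positive for 11 and negative for 3 (9.63% and 18.3% of all genes). On average 7 rose and 6 fell, with a median of -0.06, and only Ier5, an immediate early gene, was separated. Ier5 had 5.28 and 4.21 CPM in 2i/L and 7.2 and 6.03 CPM in S/L+PD, against 3.19 and 3.15 CPM in a2i/L, 1.34 and 2.19 CPM in PKCi/L and 1.67 and 2.13 CPM in S/L (1.18 ± 0.14). Etv4, an ETS factor and common ERK target, fell (-2.17 ± 0.14) but had 10.9 and 11.6 CPM in 2i/L and 4.1 and 2.95 CPM in S/L+PD, against 25.6 and 22.4 CPM in a2i/L, 18.3 and 8.72 CPM in PKCi/L and 90.1 and 91.8 CPM in S/L. Its PKCi/L libraries overlapped those of 2i/L, so the gene did not separate. Fos, an AP-1 subunit, had 1.76 and 2.29 CPM in 2i/L and 145 and 157 CPM in S/L+PD, against 15.3 and 11.7 CPM in a2i/L, 3.37 and 4.66 CPM in PKCi/L and 2.77 and 2.94 CPM in S/L. The S/L+PD libraries stood far above every other, while 2i/L was the lowest medium.

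Among 31 components of the cascade, 6 rose and 5 fell on average, with 1 separated as higher and 3 as lower. These shares lay near or below those of all genes (30.3% risen, 17% fallen, 10.4% and 5.69% separated), apart from the 3 lower ones. Mapk3, which encodes an ERK kinase, had 4.75 and 6.16 CPM in 2i/L and 7.23 and 7.39 CPM in S/L+PD, against 11.3 and 11.8 CPM in a2i/L, 10.6 and 9.45 CPM in PKCi/L and 8.36 and 9.99 CPM in S/L (-0.65 ± 0.13). Of the genes for the Mek kinases themselves, Map2k1 rose on average (0.49 ± 0.09) and Map2k2 did not pass (-0.16 ± 0.11, limma adjusted p = 0.263). The Map2k1 call was lost with passage 10 libraries only (0.23, adjusted p = 0.121). Here and below, this setting leaves out S/L+PD, so that 2i/L is the only medium with Mek inhibitor. With TMM scaling Map2k2 passed as lower (-0.24, adjusted p = 0.0143). Shc1, an adaptor below receptor kinases, was separated as lower with 37.8, 40.5, 44.99 and 45.3 CPM with Mek inhibitor, against 64.2 to 77.2 CPM (median 70.1) without it. Nras was also lower, with 71, 76.3, 69.9 and 66 CPM against 83.8 to 103 CPM (median 94.9). The adaptor Grb2 was higher, with 12.7, 16.04, 12.7 and 14.3 CPM against 8.05 to 10.8 CPM (median 9.4). All 3 lay less than 1 log2 unit apart between the sides.

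Of 23 ligands and receptors of FGF, EGF, insulin and related signals, 11 rose and 4 fell on average, against 30.3% and 17% of all genes. Separated were 2 as higher and 1 as lower, against 10.4% and 5.69%. Apart from the share that rose, these shares were near those of all genes. Pdgfc, a PDGF ligand, had 21.1 and 22.3 CPM in 2i/L and 22.4 and 20.5 CPM in S/L+PD, against 1.33 and 1.06 CPM in a2i/L, 4.38 and 2.22 CPM in PKCi/L and 7.7 and 7.52 CPM in S/L (2.58 ± 0.15). The 4 libraries with Mek inhibitor were close together, and S/L was the highest medium without it. Fgf3 had 2.18, 2.13, 2.3 and 3 CPM with Mek inhibitor, against 0.41 to 0.85 CPM (median 0.67) without it. Fgf1 was lower, with 0.18, 0.18, 0.09 and 0 CPM against 0.2 to 2.68 CPM (median 1.99), and its a2i/L libraries lay next to those of 2i/L, so the separation was only 0.04 log2 units wide.

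Beyond Spry4, the genes with the widest separation downward included a hormone precursor, RNA-binding proteins and an activin subunit. Trh, the precursor of thyrotropin-releasing hormone, had 2.16 and 1.56 CPM in 2i/L and 1.71 and 0.66 CPM in S/L+PD, against 33.9 and 20.3 CPM in a2i/L, 243 and 164 CPM in PKCi/L and 17.8 and 29.2 CPM in S/L (-4.69 ± 0.21). Levels without Mek inhibitor varied more than those with it, and PKCi/L was the highest medium. Lin28b, an RNA-binding protein that blocks maturation of let-7 miRNAs, had 1.1 and 0.77 CPM in 2i/L and 1.39 and 1.02 CPM in S/L+PD, against 11.1 and 12.2 CPM in a2i/L, 11.1 and 8.61 CPM in PKCi/L and 17.4 and 11.8 CPM in S/L (-2.98 ± 0.15). Its relative Lin28a had 1.52 and 1.77 CPM in 2i/L and 15.5 and 16.7 CPM in S/L+PD, against 56.9 and 53.8 CPM in a2i/L, 114 and 82.3 CPM in PKCi/L and 72.5 and 79.2 CPM in S/L (-3.64 ± 0.16). Lin28a was thus lowest in 2i/L and intermediate in S/L+PD, whereas Lin28b lay at the same low level in both. Inhbb, which encodes an activin and inhibin subunit, had 4.14 and 3.6 CPM in 2i/L and 3.45 and 2.56 CPM in S/L+PD, against 23.99 and 21.7 CPM in a2i/L, 24.7 and 20.7 CPM in PKCi/L and 53.8 and 48.2 CPM in S/L (-2.96 ± 0.15).

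Optn, an autophagy receptor, had 2.02, 1.43, 2.01 and 1.66 CPM with Mek inhibitor, against 11.9 to 15.8 CPM (median 14.1) without it. Bdh2, a dehydrogenase, had 0.09, 0.11, 0.32 and 0.02 CPM against 3.49 to 7.37 CPM (median 4.5). Phlda2, an imprinted gene that limits placental growth, had 0.77, 0.59, 1.18 and 1.42 CPM against 6.83 to 14.8 CPM (median 10.04). These 3 genes showed a gap of 2.295, 2.28 and 1.93 log2 units. Gm7325 (Mymx in RefSeq, a membrane protein of myoblast fusion) had 6.05, 6.9, 6.55 and 5.95 CPM against 27.1 to 58.5 CPM (median 38.3). Gm98 (Myrf in RefSeq, a transcription factor of myelin genes) had 0.26, 0.32, 0.56 and 0.32 CPM against 3.78 to 14.7 CPM (median 9.54). Esrp1, an epithelial splicing regulator, had 0.26, 0.29, 0.97 and 1.49 CPM against 5.54 to 10.2 CPM (median 6.42). Stmn3, of the stathmin family of microtubule regulators, had 0.66, 0.52, 0.03 and 0.46 CPM against 4.2 to 7.59 CPM (median 4.75). In each of these genes the libraries with Mek inhibitor lay more than 1 log2 unit below the lowest library without it.

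Upward, the widest separation was that of Gm13128 (Pramel30 in RefSeq, of the PRAME family), which had 9.9 and 7.78 CPM in 2i/L and 13.01 and 8.42 CPM in S/L+PD, against 0 and 0 CPM in a2i/L, 0 and 0 CPM in PKCi/L and 0 and 0.13 CPM in S/L. It was listed at 0 in all but 1 of the libraries without Mek inhibitor, so no fold change is given. Glis3, a zinc finger transcription factor, had 13.6 and 12.04 CPM in 2i/L and 11 and 11.5 CPM in S/L+PD, against 1.06 and 1.2 CPM in a2i/L, 0.4 and 0.38 CPM in PKCi/L and 0.78 and 0.68 CPM in S/L (3.37 ± 0.13). Aspa, an enzyme that cleaves N-acetylaspartate and whose promoter window is the CpG-poor one above, had 23.5 and 22.8 CPM in 2i/L and 9.06 and 7.61 CPM in S/L+PD, against 0.16 and 0.37 CPM in a2i/L, 0.02 and 0 CPM in PKCi/L and 0.72 and 0.68 CPM in S/L (4.22 ± 0.16). Aspa was higher in 2i/L than in S/L+PD. Calcoco2, an autophagy receptor, had 47.1 and 42.1 CPM in 2i/L and 49.95 and 38.04 CPM in S/L+PD, against 1.84 and 2.89 CPM in a2i/L, 0.59 and 0.19 CPM in PKCi/L and 6.86 and 7.81 CPM in S/L (4.06 ± 0.14). Rpl39l, a ribosomal protein paralogue known from testis, had 42.1 and 41.5 CPM in 2i/L and 31.5 and 26.3 CPM in S/L+PD, against 2.59 and 4.03 CPM in a2i/L, 5.33 and 3.95 CPM in PKCi/L and 4.09 and 4.94 CPM in S/L (2.95 ± 0.14).

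Ppp2r2c, a regulatory subunit of the phosphatase PP2A, had 48.2, 48.5, 46.6 and 44.96 CPM with Mek inhibitor, against 0.87 to 9.68 CPM (median 5.08) without it. Agpat9 (Gpat3 in RefSeq, an enzyme of triglyceride synthesis) had 9.07, 9.5, 6.52 and 8.69 CPM against 0 to 1.04 CPM (median 0.495). Pkd2l1, an ion channel, had 7.99, 10.7, 3.25 and 2.95 CPM against 0 to 0.23 CPM (median 0.03). The X-linked genes Xlr3a, Xlr3b and Xlr3c were all in this set, Xlr3a with 15.1, 13.8, 16.2 and 12.2 CPM against 0 to 2.1 CPM (median 0.99). Xlr3c had 9.33, 8.71, 5.9 and 7.05 CPM against 0 to 0.14 CPM (median 0). These 3 genes are close copies of each other, so reads may have been split between them and their single values are uncertain. The collagen gene Col3a1 completes the 12, and is described with the fibroblast markers.

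**Figure D2:**
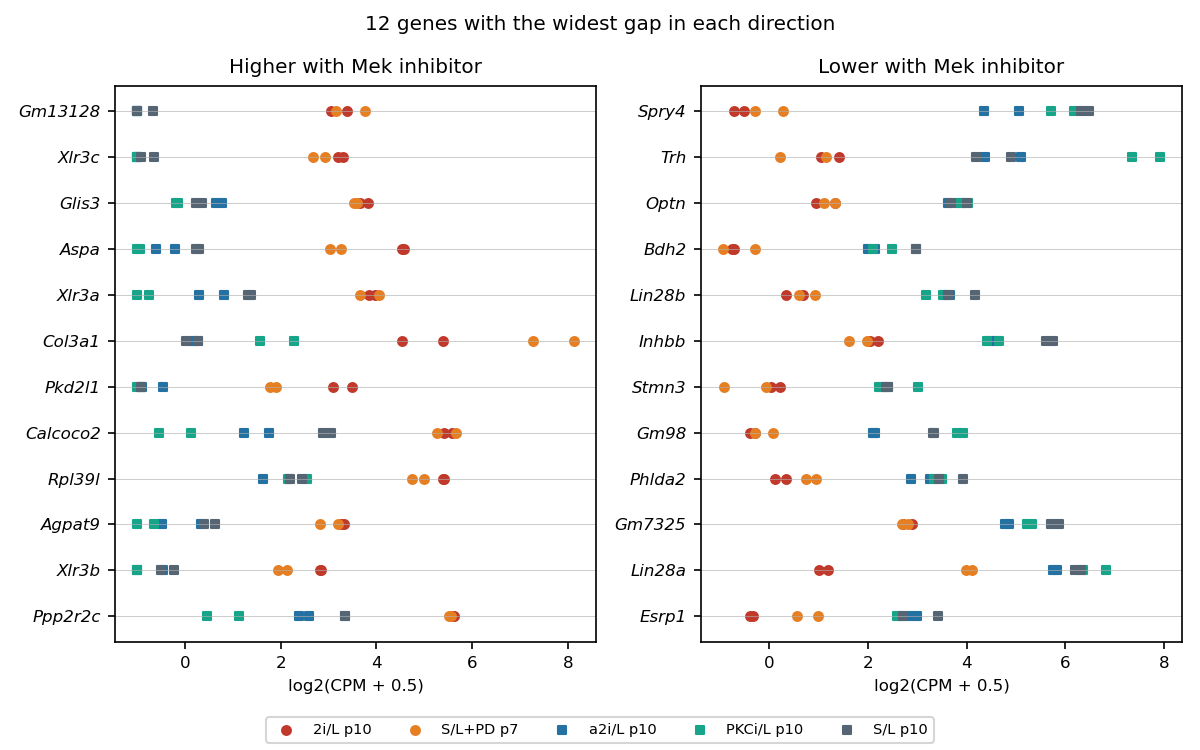
The 12 higher and 12 lower genes with the widest gap between the sides, as log2(CPM + 0.5) in each library; circles are libraries with and squares libraries without Mek inhibitor. In every row circles and squares do not overlap, and the gap is widest for Spry4 (4.07) and Gm13128 (3.72).

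Among naive pluripotency factors, Nanog, Prdm14, Dppa3 and Fbxo15 were higher in every library with Mek inhibitor. Of 17 naive factors 8 rose and 3 fell on average, against 30.3% and 17% of all genes, and 4 were separated as higher and 1 as lower, against 10.4% and 5.69%. The share that fell was that of all genes. Nanog, a core factor of naive pluripotency, had 558 and 535 CPM in 2i/L and 628 and 581 CPM in S/L+PD, against 293 and 291 CPM in a2i/L, 274 and 257 CPM in PKCi/L and 277 and 282 CPM in S/L (1.04 ± 0.10). The 4 libraries with Mek inhibitor lay well above the others, and Nanog rose in both pairs (S/L+PD against S/L by 1.11 ± 0.15, 2i/L against a2i/L by 0.90 ± 0.15). Prdm14, a repressor of de novo methyltransferase genes, had 33.1, 34.3, 40.3 and 32.1 CPM with Mek inhibitor, against 11.2 to 19.02 CPM (median 14.4) without it (1.23 ± 0.12). Dppa3, a maternal factor that protects against methylation, had 49.3 and 37.4 CPM in 2i/L and 12.6 and 15.5 CPM in S/L+PD, against 5.82 and 4.4 CPM in a2i/L, 0.78 and 1.08 CPM in PKCi/L and 4.5 and 4.79 CPM in S/L (2.87 ± 0.21). It was highest in 2i/L and lowest in PKCi/L. Fbxo15 had 208, 191, 301 and 287 CPM against 71.2 to 122 CPM (median 105), with S/L+PD above 2i/L.

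Esrrb, an orphan receptor of the naive network, was the member separated as lower, with 305, 321, 286 and 262 CPM with Mek inhibitor, against 324 to 402 CPM (median 373) without it. Its gap was 0.01, and its call was lost with passage 10 libraries only (adjusted p = 0.157). Klf2 rose on average (0.88 ± 0.14) but overlapped, and Klf4 did not pass (-0.02 ± 0.09, limma adjusted p = 0.852), although with passage 10 libraries only it fell (-0.45, adjusted p = 0.00274). Of 15 general factors 9 fell and 0 rose on average (11 and 0 with TMM scaling), and Lin28a and Lin28b were the separated ones. In S/L+PD against S/L 7 fell and 0 rose, against 19.3% and 16.4% of all genes. In 2i/L against a2i/L 4 fell and 3 rose, against 11.8% and 23.9%, so the share that rose was near that of all genes. Pou5f1 fell by little (-0.35 ± 0.11) and Sox2 did not pass (0.20 ± 0.09, limma adjusted p = 0.0805). Sox2 passed as higher in a fit of the 10 libraries alone (adjusted p = 0.0175) and without PKCi/L (adjusted p = 0.023), and as 2 plain groups of 4 and 6 libraries neither Pou5f1 (adjusted p = 0.0859) nor Utf1 (adjusted p = 0.0754) passed. Utf1, a chromatin factor of ESCs, fell (-1.94 ± 0.13) but had 1.98 and 2.53 CPM in 2i/L and 17.1 and 21.5 CPM in S/L+PD, against 12.7 and 11.04 CPM in a2i/L, 41 and 37.1 CPM in PKCi/L and 39.3 and 51.7 CPM in S/L, so S/L+PD lay above a2i/L and the gene did not separate. Of 15 formative and primed factors 8 rose and 3 fell on average, against 30.3% and 17% of all genes. Tcf15, a factor linked to priming for differentiation, was separated as lower, with 1.08, 1.31, 1.12 and 0.83 CPM against 3.98 to 16.4 CPM (median 12.5), and Nodal as higher, with 42.4, 47.3, 57.03 and 57.6 CPM against 20.1 to 34.5 CPM (median 26.1).

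Genes of DNA methylation fell mostly in serum, and of the de novo enzymes only Dnmt3a separated. Of 16 members 11 fell and 2 rose in S/L+PD against S/L (median -0.52), while 3 fell, 2 rose and the others did not pass in 2i/L against a2i/L (median 0.02). On average 9 fell and 3 rose (11 and 3 with TMM scaling), against 17% and 30.3% of all genes, with 3 separated as lower and 1, Dppa3, as higher. Dnmt3a had 19.5 and 20.9 CPM in 2i/L and 9.29 and 10.5 CPM in S/L+PD, against 32.3 and 30.1 CPM in a2i/L, 34.2 and 36.1 CPM in PKCi/L and 71.8 and 62.7 CPM in S/L (-1.53 ± 0.12). It was lowest in S/L+PD and highest in S/L. Dnmt3b had 10.7 and 12.7 CPM in 2i/L and 8.59 and 7.73 CPM in S/L+PD, against 9.6 and 12.3 CPM in a2i/L, 74.5 and 58.6 CPM in PKCi/L and 51.9 and 55.7 CPM in S/L (-1.75 ± 0.12). Its a2i/L libraries were as low as those of 2i/L. Dnmt3l, the cofactor of both enzymes, had 3.96 and 3.71 CPM in 2i/L and 75.5 and 120.3 CPM in S/L+PD, against 26.3 and 29.8 CPM in a2i/L, 187 and 143 CPM in PKCi/L and 95.3 and 125 CPM in S/L (-1.97 ± 0.13). Its low level was that of 2i/L and, less so, a2i/L, and S/L+PD overlapped S/L.

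Dnmt3b and Dnmt3l no longer passed when the 4 and the 6 libraries were fitted as 2 plain groups (adjusted p = 0.0512 and 0.205). The maintenance genes Uhrf1 (-0.32 ± 0.10) and Dnmt1 (-0.19 ± 0.10, limma adjusted p = 0.103) overlapped between the sides, and with passage 10 libraries only Uhrf1 lost its call (adjusted p = 0.76) and Dnmt1 changed sign (0.11, adjusted p = 0.527). Dnmt1 passed as lower with TMM scaling (-0.27, adjusted p = 0.000274) and in a fit of the 10 libraries alone (-0.19, adjusted p = 0.0353). Tet1, an enzyme that oxidises methylcytosine, was separated as lower with 180.2, 209, 198 and 178 CPM with Mek inhibitor, against 228 to 416 CPM (median 302) without it. Tdg, a glycosylase of demethylation, was also lower, with 8.45, 7.65, 5.43 and 6.37 CPM against 8.58 to 9.96 CPM (median 9.16) and a gap of 0.02.

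Of 32 germline genes known for methylated promoters 15 rose and 11 fell on average, against 30.3% and 17% of all genes, and 7 were separated as higher and 2 as lower, against 10.4% and 5.69%. The 2 lower ones are about the share of all genes. Dazl, an RNA-binding protein of germ cells, had 274 and 219.9 CPM in 2i/L and 52.99 and 68.2 CPM in S/L+PD, against 19.9 and 33.3 CPM in a2i/L, 4.64 and 3.71 CPM in PKCi/L and 14.7 and 15.8 CPM in S/L (3.30 ± 0.15). It was highest in 2i/L, and S/L+PD lay above a2i/L. Tuba3a, a tubulin of testis, had 66.3 and 52.3 CPM in 2i/L and 66.2 and 69.2 CPM in S/L+PD, against 14.6 and 23.7 CPM in a2i/L, 5.84 and 7.64 CPM in PKCi/L and 15.4 and 17.6 CPM in S/L (2.26 ± 0.12). Its 4 libraries with Mek inhibitor were at one level, unlike Dazl. Tuba3b had 12.8, 9.23, 3.36 and 5.81 CPM with Mek inhibitor, against 0 to 1.6 CPM (median 0.29) without it, and shares much of its sequence with Tuba3a, so both values are uncertain. Hormad1, a protein of meiotic chromosomes, had 45.8, 40.2, 28.3 and 29.98 CPM against 8.18 to 17.5 CPM (median 12.7). Dazl and Tuba3a, both higher, hold 20 and 8 CpG sites in the windows printed above, and Dusp6, lower, holds 16.

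Imprinted genes moved in both directions. Of all genes 30.3% rose and 17% fell on average, and 10.4% were separated as higher and 5.69% as lower. Of 16 maternally expressed ones 5 rose and 6 fell on average, with 2 separated as higher and 3 as lower. Grb10, an adaptor that limits growth factor signalling, had 85.5, 88.8, 123 and 97.2 CPM with Mek inhibitor, against 146 to 312 CPM (median 189.8) without it, and Slc22a18 had 0.68, 1.09, 2.33 and 3.07 CPM against 3.52 to 4.84 CPM (median 3.83). Cd81, a tetraspanin, was higher, with 179, 177, 214 and 251 CPM against 102 to 149 CPM (median 122). Of 23 paternally expressed ones 9 rose and 7 fell, with 4 separated as higher and 2 as lower. Plagl1, a zinc finger factor, had 33.9 and 37.5 CPM in 2i/L and 13.2 and 11.2 CPM in S/L+PD, against 5.64 and 4.78 CPM in a2i/L, 0.75 and 0.62 CPM in PKCi/L and 2.33 and 2.06 CPM in S/L (3.02 ± 0.14). Ddc, which makes dopamine and serotonin, had 22.1, 24.2, 27.5 and 18.4 CPM against 1.92 to 6.36 CPM (median 4.04). Peg10 was lower, with 9.79, 11.9, 7.73 and 8.27 CPM against 13.5 to 65.8 CPM (median 21.4), and Nnat had 0.57, 0.36, 0.56 and 0.83 CPM against 1.35 to 3.79 CPM (median 1.73).

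Of 11 measured Hox genes, the patterning factors of the body axis, 9 rose and 0 fell on average (9 and 0 with TMM scaling), and 5 were separated as higher. The shares of all genes were 30.3%, 17% and 10.4%. Levels stayed low. Hoxa10 had 6.6 and 6.7 CPM in 2i/L and 1.98 and 0.73 CPM in S/L+PD, against 0.4 and 0.09 CPM in a2i/L, 0.02 and 0 CPM in PKCi/L and 0.06 and 0.03 CPM in S/L. Hoxd9 had 2.44, 2.44, 0.83 and 1.17 CPM with Mek inhibitor, against 0.02 to 0.26 CPM (median 0.15) without it, and Hoxc13 had 4.09, 4.75, 4.22 and 5.95 CPM against 1.57 to 2.6 CPM (median 2.1). Hoxa9 had 1.03, 1.61, 0.27 and 0.27 CPM against 0 to 0.08 CPM (median 0.015) and was listed at 0 in 3 libraries. Hoxa10, Hoxd9 and Hoxa9 were higher in 2i/L than in S/L+PD, and Hoxc13 was not.

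In Nodal, activin and BMP signalling, 9 of 20 genes rose and 4 fell on average. For this list and the Wnt and LIF lists below, the shares of all genes were 30.3% risen and 17% fallen. Of all genes 10.4% were separated as higher and 5.69% as lower. Besides Nodal and Inhbb, Bmp4 was separated, with 0.22 and 0.23 CPM in 2i/L and 2.6 and 1.24 CPM in S/L+PD, against 5.64 and 5.75 CPM in a2i/L, 14.5 and 9.64 CPM in PKCi/L and 5.91 and 7.29 CPM in S/L (-2.65 ± 0.15). It was lowest in 2i/L and intermediate in S/L+PD. Of 13 Wnt and beta-catenin targets 7 rose and 1 fell (6 and 2 with TMM scaling), but only Apcdd1, a Wnt inhibitor, was separated, with 5.63, 6.74, 7.05 and 5.22 CPM with Mek inhibitor, against 1.57 to 3.36 CPM (median 1.9) without it. Axin2, the standard Wnt target, did not pass on average (-0.06 ± 0.13, limma adjusted p = 0.708) and had 32.9 and 34.9 CPM in 2i/L and 1.62 and 0.95 CPM in S/L+PD, against 18.7 and 16.5 CPM in a2i/L, 5.51 and 4.41 CPM in PKCi/L and 5.3 and 4.61 CPM in S/L. It was high in both media with the Gsk3 inhibitor and lowest in S/L+PD. With passage 10 libraries only, which leave out S/L+PD, its average was 2.08 (adjusted p = 1.24e-14). Of 15 LIF and STAT3 genes 6 rose and 4 fell (6 and 6 with TMM scaling). The kinase gene Jak2, separated as higher, had 11.4, 10.2, 9.85 and 10.4 CPM against 3.63 to 7.95 CPM (median 7).

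The glycolysis and cholesterol synthesis lists separated in 1 member each. Of all genes 30.3% rose and 17% fell on average, and 10.4% were separated as higher and 5.69% as lower. Of 22 glycolysis genes 5 rose and 5 fell on average (5 and 7 with TMM scaling), an average over opposite changes. In S/L+PD against S/L 15 rose and 1 fell (median 0.78), while in 2i/L against a2i/L 0 rose and 7 fell (0 and 19 with TMM scaling), and the difference passed as positive for 17. Pdk1, a kinase that keeps pyruvate out of mitochondria, was the 1 separated, with 67.1 and 68.2 CPM in 2i/L and 61.4 and 71.2 CPM in S/L+PD, against 221 and 180.1 CPM in a2i/L, 267 and 223 CPM in PKCi/L and 133 and 141 CPM in S/L (-1.49 ± 0.10). Of 21 cholesterol synthesis genes 11 fell and 1 rose on average (17 and 1 with TMM scaling). The falls were in S/L+PD against S/L, where 14 fell and 0 rose, while 1 fell and 4 rose in 2i/L against a2i/L (median 0.01). Lss, which closes the sterol ring, was separated as lower with 30.2, 32.1, 16.3 and 15.7 CPM with Mek inhibitor, against 36.8 to 53.4 CPM (median 41.5) without it. Of 18 ATF4 and amino acid response genes 13 fell and 2 rose. The serine synthesis gene Phgdh had 68.4, 63.9, 64.1 and 48.4 CPM against 84.8 to 95.3 CPM (median 87.1). Psat1 and the amino acid transporter subunit Slc3a2 were separated as lower by less than 0.1 log2 units, Psat1 not with TMM scaling.

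Of 22 cyclins and cyclin kinase inhibitors 11 rose and 4 fell on average, against 30.3% and 17% of all genes, so the share that fell was close to that of all genes. Separated were 4 as higher (3 with TMM scaling) and 0 as lower, against 10.4% and 5.69% of all genes. The kinase inhibitor Cdkn2b had 2.51, 2.74, 3.57 and 4 CPM with Mek inhibitor, against 0.24 to 1.3 CPM (median 0.83) without it, and Cdkn2c had 4.42, 5.45, 2.18 and 2.12 CPM against 0.52 to 1.81 CPM (median 1.3). Rb1, the retinoblastoma gene, had 14.9, 15.9, 10.2 and 9.81 CPM against 4.86 to 9.45 CPM (median 6.86), and the phosphatase gene Cdc25a had 80.5, 78.2, 62.6 and 65.7 CPM against 50.8 to 61.9 CPM (median 56.4), a separation that was lost with TMM scaling. Of 17 p53 targets 11 rose and 2 fell on average, with 9 and 1 in 2i/L against a2i/L but 2 and 3 in S/L+PD against S/L. Among them 5 were separated as higher and 1 as lower. Plk2 had 58.1, 51.8, 60.2 and 62.6 CPM against 11.1 to 35.8 CPM (median 24.2). Ccng1 had 327, 308, 248 and 222 CPM against 93.7 to 208 CPM (median 191) and Aen 51.5, 50.8, 44.6 and 46.2 CPM against 29.6 to 41.9 CPM (median 35.6). Pmaip1, which promotes apoptosis, was lower, with 29.4, 31.02, 29.1 and 33.6 CPM against 35.3 to 54.5 CPM (median 47.6). Of 17 genes for kinases that the media inhibit 8 rose and 0 fell (8 and 2 with TMM scaling), with Gsk3b at 54.5, 57, 42.5 and 43.3 CPM against 25.4 to 37.6 CPM (median 29.9). Prkcd was also separated, with 20.5, 21.9, 18.1 and 19.3 CPM against 11.3 to 14.1 CPM (median 12.3), and Prkch with 3.3, 3.15, 1.42 and 1.95 CPM against 0.49 to 1.12 CPM (median 0.81).

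Fibroblast markers, chosen to watch for feeder RNA, were higher with Mek inhibitor, and most of all in S/L+PD. Of 24 markers 22 rose and 0 fell on average, and 12 were separated as higher, against 10.4% of all genes. Col3a1 had 41.6 and 22.7 CPM in 2i/L and 281 and 154 CPM in S/L+PD, against 0.61 and 0.71 CPM in a2i/L, 4.36 and 2.46 CPM in PKCi/L and 0.52 and 0.7 CPM in S/L (5.57 ± 0.17). Col1a1 had 23.3 and 16.2 CPM in 2i/L and 405 and 301 CPM in S/L+PD, against 0.97 and 0.86 CPM in a2i/L, 1.06 and 1.65 CPM in PKCi/L and 3.34 and 2.65 CPM in S/L (5.33 ± 0.13). Both collagens lay higher in S/L+PD than in 2i/L, and both 2i/L libraries lay above every library without Mek inhibitor. Col5a2 had 5.52, 3.69, 247 and 143 CPM with Mek inhibitor, against 0.34 to 0.69 CPM (median 0.44) without it, and Col1a2 had 23.4, 14.2, 452 and 259.7 CPM against 1.06 to 4.18 CPM (median 1.74).

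Taken by medium, 12 of the 24 markers in 2i/L and 21 in S/L+PD lay above all 6 libraries without Mek inhibitor. Markers that did not in 2i/L included Thy1, Pdgfra, Pdgfrb, Dcn, Sparc and Vim. The list summed to 1408 to 1585 CPM in 2i/L and 3156 to 4294 CPM in S/L+PD, against 1003 to 1252 CPM in a2i/L, 982 to 1011 CPM in PKCi/L and 742 to 770 CPM in S/L. S100a4 was listed at 0 in 4 libraries and Dcn in 1. In bulk RNA, more cells of a type and more RNA per cell cannot be told apart, and the part of feeder RNA in the other results was not tested. Of the 106 higher genes with a gap of at least 1, 99 are not on the marker list. Of 15 SRF and YAP targets, which mark contractile and adherent cells, 12 rose and 1 fell (12 and 2 with TMM scaling), against 30.3% and 17% of all genes. In S/L+PD against S/L 11 rose and 1 fell, while in 2i/L against a2i/L 6 rose and 3 fell, and the difference passed as positive for 11. The list summed to 488 to 494 CPM in 2i/L and 1692 to 2425 CPM in S/L+PD. Without Mek inhibitor it summed to 397 to 445 CPM in a2i/L, 444 to 601 CPM in PKCi/L and 740 to 779 CPM in S/L. Ctgf (Ccn2 in RefSeq) was separated with 17.6 and 19.5 CPM in 2i/L and 108 and 96.4 CPM in S/L+PD, against 4.88 and 4.92 CPM in a2i/L, 1.44 and 1.25 CPM in PKCi/L and 8.04 and 9.11 CPM in S/L, and Amotl2 with 70.5, 65.4, 155 and 149 CPM against 22.6 to 52.05 CPM (median 31.3). Vcl had 36.95, 36.4, 46.7 and 35.6 CPM against 21.9 to 33.5 CPM (median 27.9). Acta2 and Thbs1 of the same list overlapped and were far higher in S/L+PD, Thbs1 with 1.01 and 0.84 CPM in 2i/L and 1140.3 and 640.4 CPM in S/L+PD, against 0.22 and 0.2 CPM in a2i/L, 1.11 and 0.62 CPM in PKCi/L and 12.2 and 8.04 CPM in S/L.

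**Figure D3:**
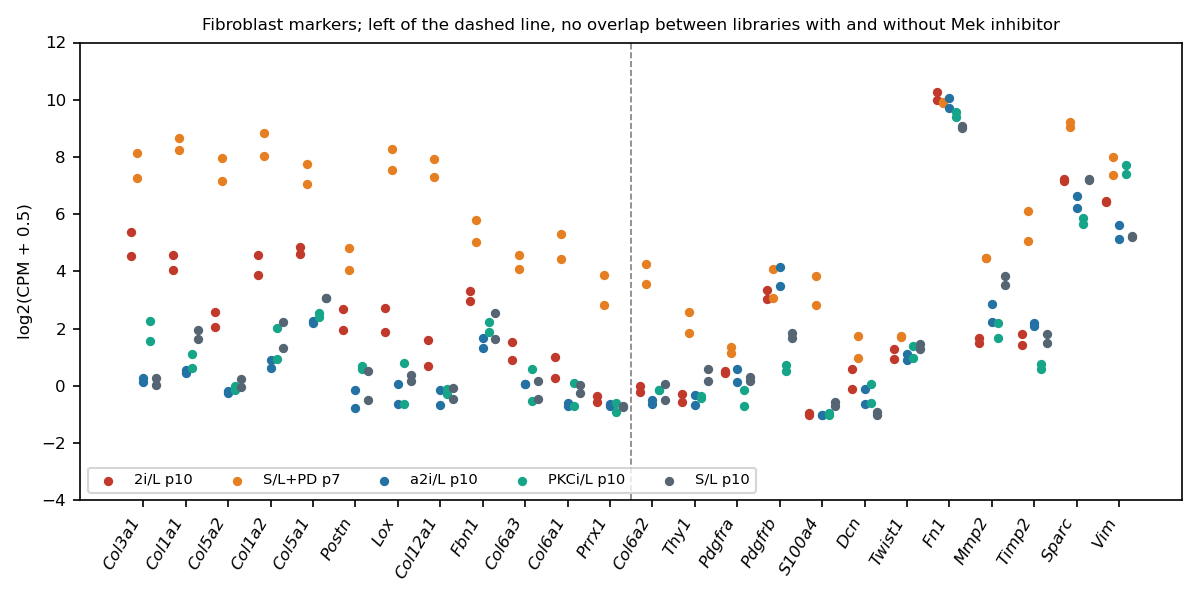
Level of 24 fibroblast markers as log2(CPM + 0.5) in each library, coloured by medium; genes left of the dashed line do not overlap between the sides. S/L+PD (orange) stands highest for most markers, and 2i/L (red) comes next for the 12 separated ones.

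Among markers of other cell types, those of neural progenitors were lower on average. Of all genes 30.3% rose and 17% fell on average. Of 13 primitive endoderm markers 7 rose and 4 fell on average (median 0.43) and 0 were separated. The list summed to 650 to 717 CPM in 2i/L and 1117 to 1187 CPM in S/L+PD, against 404 to 518 CPM in a2i/L, 270 to 334 CPM in PKCi/L and 786 to 872 CPM in S/L. Gata4 and Gata6, its defining factors, were among the 4 that fell (-0.67 ± 0.17 and -0.48 ± 0.15), against the direction of most of the list. Of 8 trophoblast markers 5 rose and 1 fell (4 and 2 with TMM scaling) and 0 were separated. Of 10 neural progenitor markers 7 fell and 1 rose on average (median -1.49), and Trh, Sox11 and Cntn2 were separated as lower, against 5.69% of all genes. In S/L+PD against S/L 8 fell and 2 rose, and in 2i/L against a2i/L 4 fell and 3 rose. The neural list summed to 68.51 to 71.86 CPM in 2i/L and 37.57 to 54.55 CPM in S/L+PD. Without Mek inhibitor it summed to 63.88 to 78.83 CPM in a2i/L, 353.5 to 534.1 CPM in PKCi/L and 97.01 to 111.3 CPM in S/L. The sum was thus highest in PKCi/L, and 2i/L lay within the range of a2i/L. These sums include the hormone precursor Trh, with the values given above. Trh made up a large part of them in PKCi/L and a2i/L but little in 2i/L, so the sums do not rank the media by the other markers. At passage 20, 6 members of the list were higher and 4 lower in 2i/L than in S/L, against 50% and 12.3% of all genes. Sox11 had 1.45, 1.22, 1.68 and 0.61 CPM with Mek inhibitor, against 3.4 to 13.8 CPM (median 4.26) without it, and Cntn2, an axonal adhesion protein, had 0.62, 1.18, 1.83 and 3.12 CPM against 3.82 to 12.2 CPM (median 5.44). Of 2 mesoderm markers Gsc was separated as higher, with 5.06, 4.66, 3.42 and 3.22 CPM against 0.16 to 1.8 CPM (median 0.35). All 4 two-cell stage genes rose in 2i/L against a2i/L (median 1.89) and on average, but in S/L+PD against S/L 3 fell and 1 rose (median -0.78). Only Eif1a was separated, with 159.8, 153, 158 and 139.9 CPM against 96.8 to 128 CPM (median 109). Of 3 genes chosen for synthesis of the sorted antigen SSEA1 or of related sugar chains, 2 were separated as higher. St3gal4, a sialyltransferase that does not make SSEA1 itself, had 15.4, 12.1, 14.8 and 17.9 CPM against 4.93 to 8.08 CPM (median 6.54). B4galt1 had 25.1, 30.8, 26.4 and 25.3 CPM against 13.3 to 24.1 CPM (median 19.8), and did not separate with TMM scaling.

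The 2 pairs that share no library gave the change between media with and without Mek inhibitor in each background. Neither pair isolates the inhibitor. S/L+PD against S/L also differs by passage and, by the titles, in part by ESC line. The pair of 2i/L and a2i/L also differs by the Src inhibitor. S/L+PD against S/L called 2120 genes higher (16.4%) and 2498 lower (19.3%), and 2i/L against a2i/L called 3095 higher (23.9%) and 1523 lower (11.8%). Each pair thus called 35.7% of all genes. With TMM scaling these were 2918 and 2894 in the first pair and 2912 and 2802 in the second. In both pairs 1009 genes rose (7.8%) and 641 fell (4.95%). The rises held in common were 47.6% of those in serum and 32.6% of those against a2i/L, and the common falls were 25.7% and 42.1%. By contrast, 208 genes rose in serum and fell against a2i/L, and 239 did the reverse. Every one of the 106 higher and 30 lower genes with a gap of at least 1 passed in both pairs. Such a gap forces a change of at least 1 log2 unit in each pair, so this is no further evidence for these genes.

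**Figure D4:**
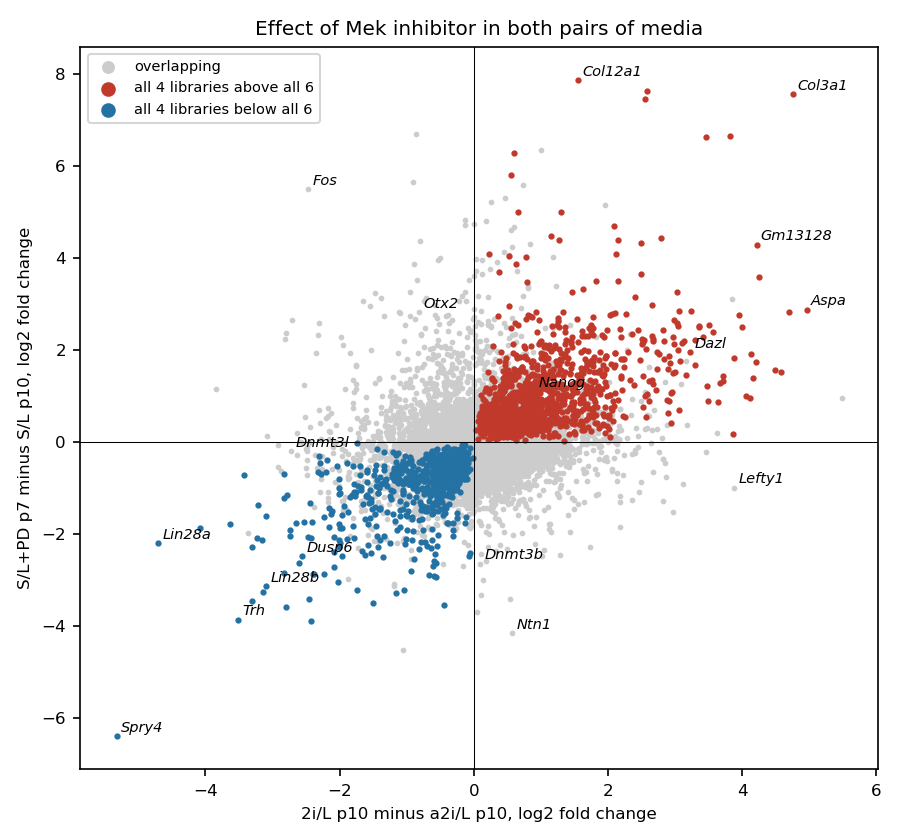
Log2 fold change of every gene in S/L+PD against S/L (vertical axis) and in 2i/L against a2i/L (horizontal axis); each point is 1 gene, red where all 4 libraries with Mek inhibitor lie above and blue where they lie below the 6 without. Spry4, Trh and Lin28b lie low on both axes, Gm13128 and Aspa high, and Fos, Otx2, Lefty1 and Ntn1 far from the diagonal.

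The change differed between the 2 pairs for 3610 genes (27.9%), 1246 with a more positive change in serum (9.63%) and 2364 with a more negative one (18.3%). With TMM scaling, which moved the median difference of all genes from -0.19 to -0.02, these were 2127 and 2181. Dusp6 changed by -2.49 ± 0.19 in serum and by -2.56 ± 0.19 against a2i/L, a difference of 0.07 ± 0.27 that did not pass (limma adjusted p = 0.881). Likewise Lin28b (-3.13 ± 0.23 and -3.09 ± 0.23), Optn (-2.63 ± 0.22 and -2.60 ± 0.22) and Phlda2 (-2.85 ± 0.23 and -2.83 ± 0.23) had differences of -0.04 ± 0.32, -0.02 ± 0.32 and -0.02 ± 0.33 that did not pass. Spry4 fell by more in serum than against a2i/L (difference -1.08 ± 0.32, limma adjusted p = 0.00909).

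Other genes differed in size or in direction. Lin28a fell less in serum (-2.20 ± 0.25) than against a2i/L (-4.70 ± 0.25). Aspa rose less in serum (2.88 ± 0.25 against 4.96 ± 0.25). Klf4 rose in serum (0.72 ± 0.14) and fell against a2i/L (-0.66 ± 0.14). Otx2, a factor of the formative state, likewise rose in serum (2.83 ± 0.25) and fell against a2i/L (-0.82 ± 0.25), with 1.94 and 3.78 CPM in 2i/L and 38.7 and 29.1 CPM in S/L+PD, against 5.28 and 5.12 CPM in a2i/L, 8.93 and 10.5 CPM in PKCi/L and 3.31 and 5.57 CPM in S/L. Its average over media reversed with passage 10 libraries only, which leave out S/L+PD (-1.02, adjusted p = 5.51e-05).

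The separated genes were then read in libraries that the rule did not use, 2i/L against S/L at passage 20 and the return from 2i/L to S/L at passage 23 against 2i/L at passage 20, with 3 libraries each. These 2 contrasts share the 2i/L libraries of passage 20. Both also differ by the Gsk3 inhibitor and, by the usual meaning of the names, by serum. The second also differs by passage. By the titles, these libraries are later passages of ESC lines that the rule had used. The rule had also set 2i/L against S/L, so each separated gene already differed in its direction between these media. The counts below thus show how far that difference was seen again at later passages. They are no independent test of Mek inhibitor. At passage 20, 1060 of the 1350 higher genes (78.5%) were higher in 2i/L, against 50% of all genes, and 35 were lower. With TMM scaling it was 841 (62.3%), against 31.2% of all genes. Of the 736 lower genes 273 (37.1%) were lower at passage 20, against 12.3% of all genes, and 107 were higher. With TMM scaling it was 532 (72.3%), against 33.4% of all genes. This scaling moved the median of all genes at passage 20 from 0.33 to -0.02. On return to S/L, 927 of the higher genes (68.7%) fell, against 30.3% of all genes, and 370 of the lower genes (50.3%) rose, against 15.8%. In all, 46.1% of genes were called on return.

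Among genes with a gap of at least 1, 93 of 106 higher genes were higher at passage 20, with a median of 1.71, and 92 fell on return, with a median of -1.65. Of the 30 lower genes 21 were lower at passage 20 and 2 were higher, and on return 25 rose and 0 fell. Spry4 had 68.8, 48.5 and 51.1 CPM on return at passage 23, 0.88, 0.85 and 0.89 CPM in 2i/L at passage 20 and 28.1, 17.8 and 27.1 CPM in S/L at passage 20. Dusp6 had 71.7, 59.6 and 49.3 CPM on return at passage 23, 2.8, 3.69 and 2.65 CPM in 2i/L at passage 20 and 40.1, 28.96 and 38.03 CPM in S/L at passage 20. Nanog had 104, 109 and 87.1 CPM on return at passage 23, 478, 487 and 590.3 CPM in 2i/L at passage 20 and 153, 182 and 157 CPM in S/L at passage 20. Each of the 3 genes was again on the same side in 2i/L, with no overlap, and moved back on return.

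Exceptions were Spry1 (0.05 ± 0.15, limma adjusted p = 0.782) and Nodal (-0.01 ± 0.12, limma adjusted p = 0.968), which did not pass at passage 20. Inhbb, lower with Mek inhibitor in the early libraries, was higher in 2i/L at passage 20 (0.99 ± 0.19, limma adjusted p = 1.91e-05). Lars2, a feature that varies in these libraries, read 14870 to 29548 CPM in the late libraries and 56.9 to 3797 CPM in the early ones. The fibroblast list summed to 1126 to 1364 CPM in 2i/L and 485 to 557 CPM in S/L at passage 20, and to 369 to 464 CPM on return. Its part in these counts was not tested. Of the 99 higher genes with a gap of at least 1 that are not on the list, which may hold other genes of fibroblasts, 86 were higher at passage 20 and 85 fell on return. Lists did not all keep their direction at passage 20. All 21 cholesterol synthesis genes were higher in 2i/L (median 1.53), against 50% of all genes, and of 15 SRF and YAP targets 9 were lower and 2 higher. Of the 14 ERK feedback inhibitors 6 were lower and 3 higher (10 and 2 with TMM scaling). Of all genes 12.3% were lower and 50% higher at passage 20, or 33.4% and 31.2% with TMM scaling.

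**Figure D5:**
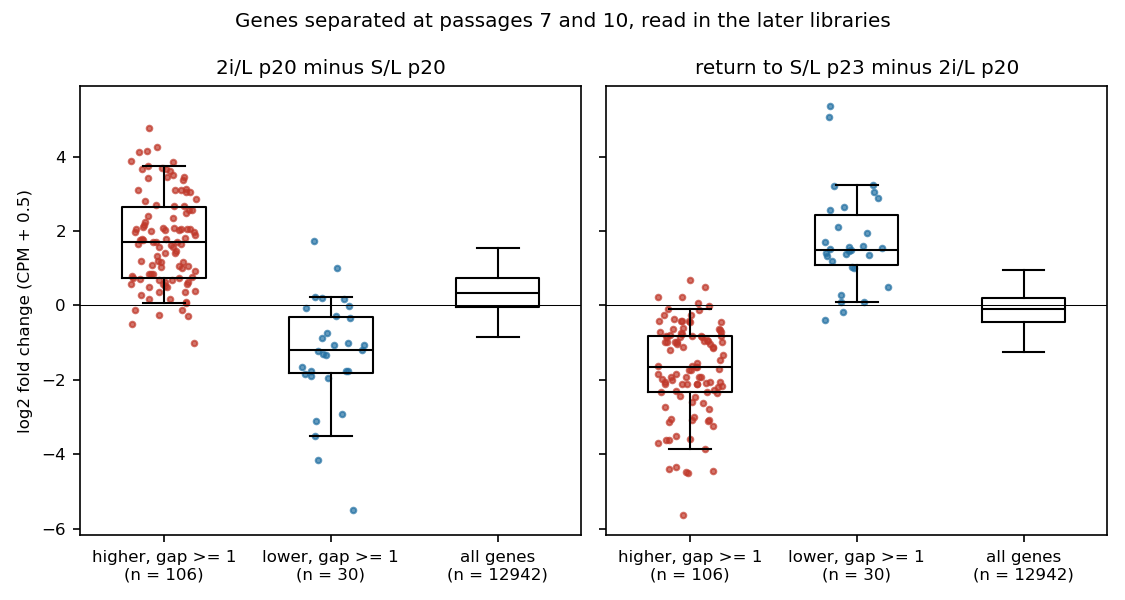
Log2 fold change at passage 20 (left) and on return from 2i/L to S/L (right) of the 106 higher and 30 lower genes with a gap of at least 1 at passages 7 and 10, and of all 12942 genes. Points are genes, boxes the quartiles with whiskers from the 5th to the 95th percentile; higher genes have a median of 1.71 at passage 20 and -1.65 on return.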

How the data were processed

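Total RNA was depleted of ribosomal RNA, made into directional paired-end libraries and sequenced, per the labels' protocols. The builds mm9 and NCBIM37, the aligner STAR (2.3.0), the counter HTSeq (0.6.0) and the package edgeR (3.8.6), besides SAMtools (0.1.18.0) and the toolkit Picard (1.100), are named in the submitters' processing notes. The authors deposited 1 table of CPM for 12942 genes, and the filter of at least 1 CPM in 2 libraries used here removed 0 of them. Spreadsheet conversion had turned 19 gene names into dates. Whole reads could not be recovered from the low CPM values (22.6% to 58.9% of values under 5 CPM lay within 0.1 of a step in the 10 libraries), so no test on counts was run.

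Medium and passage defined 8 groups. A single model over all 19 libraries (11 residual degrees of freedom) was fitted in R 4.3.3 by limma 3.58.1, with lmFit and a trended eBayes, to log2 of CPM plus 0.5. Benjamini-Hochberg adjustment ran over all genes of a comparison, and the threshold was 0.05. TMM scaling was an own implementation. The scripts were tested on simulated data. Alternatives were TMM scaling, pseudocounts of 0.1 and 1 CPM, other filters and fits, the ESC line as replicate block, and each library left out. Separation on both scales, and wide gaps without fibroblast markers, were added after seeing the data. Gene names and promoters were matched by symbol to RefSeq tables of GRCm38.p6, a newer build than that of the files, so no coordinates other than those of the printed promoters are given. Promoters of Spry4, Prdm14, Col1a1 and Dppa3 are not shown.

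Same-line libraries come from the same ESC line, so line numbers pair them across groups. Across groups, residuals of libraries from 1 line correlated with a median of 0.0492 (-0.0565 to 0.213, 14 pairs). With 2 libraries in each group the residuals of a group mirror each other. The values between lines (median -0.0442, 26 pairs) thus follow from those within lines and are no separate comparison. Genes were named by a rule: measured members of the ERK feedback and ERK-induced lists that separated, the 12 widest gaps in each direction with at least 5 CPM on the higher side, up to 4 separated genes and 2 with the largest difference between backgrounds from each of the other lists, a panel, and the 6 largest differences each way. Dusp4, Dusp5, Dusp9, Errfi1, Spred2, Il17rd, Etv4, Gata4 and Gata6 were named after their values were seen. Single values of 2 genes that the rule named are not reported here. The comparison, lists and members were chosen with earlier results of these data known.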

Additional observations from a re-analysis of the deposited data

Results flagged for a closer look

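The change differed between the serum pair (S/L+PD against S/L) and the a2i/L pair (2i/L against a2i/L) for many of the genes reported. This was by limma's test of the difference itself (adjusted p under 0.05 over 12942 genes, passed by 27.9% of all genes). The 22 given here are the largest differences in each direction, which were chosen for their size, and those widely separated or panel genes that moved in opposite directions or differed by at least 2 log2 units. Values are the change in serum minus the change against a2i/L, in log2 units. Fos (7.96), A2m (7.56), Igfbp4 (6.55), Atp6v0a4 (5.36), Otx2 (3.64) and Klf4 (1.38) rose in serum and fell against a2i/L. Col12a1 (6.32), Ccdc80 (5.67), Col1a1 (2.83) and Col3a1 (2.81) rose in both pairs, and by more in serum. Col12a1, Col1a1 and Col3a1 are fibroblast markers, a list that summed to 3156 to 4294 CPM in S/L+PD and to 1408 to 1585 CPM in 2i/L. Dnmt3l (2.52) fell against a2i/L and did not pass in serum, and Lin28a (2.50) fell in both pairs, and by less in serum.

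Aspa (-2.09) rose in both pairs, and by less in serum. Dnmt3a (-2.09) fell in both, and by more in serum. Dnmt3b (-2.75) and the axon guidance gene Ntn1 (-4.73) fell in serum and did not pass against a2i/L. The Wnt target Axin2 (-2.56), the Nodal inhibitor Lefty1 (-4.87), Accsl (-4.05), Tmprss5 (-4.11) and the epithelial factor Grhl2 (-4.50) fell in serum and rose against a2i/L. The gene 1700013H16Rik (-4.54) rose in both, and by less in serum. The a2i/L pair exchanges the Mek for the Src inhibitor, and their parts cannot be told apart. The serum pair also differs by 3 passages, which cannot be told apart from the medium. By the titles it sets 1 library of J-37 beside 1 of J-35, with J-34 in both media.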

How the results depend on the processing

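Of recomputed counts 257 stayed within 1.5 times their first value and 29 did not, and of recomputed single-gene values 1218 kept direction and call. TMM scaling gave 3669 lower genes on average, 2802 lower against a2i/L, 1145 lower in both pairs, 2127 with a more positive change in serum, 4041 higher and 4320 lower at passage 20, and 3667 higher on return. With genes of a mean of at least 5 CPM only (fewer genes tested), counts were 2381 higher and 1452 lower on average, 1172 higher in serum, 1977 higher and 822 lower against a2i/L, 596 with a more positive change in serum, 566 higher and 357 lower in both pairs, and 865 separated as higher. A plain fit of 2 groups called 1450 and 771. Passage 10 libraries only, which leave out S/L+PD, separated 3369 and 1574. The J-34 libraries separated 2465 and 1449 and, without PKCi/L, 1265 were separated as lower. Each of these settings had fewer libraries to separate. A gap of at least 1 left 106 and 30, and a 2-fold change in both pairs 337 and 176. The ESC line from the titles as replicate block gave 3875 higher and 2252 lower on average, changed no call of a recomputed single gene and moved no count of calls by over 1.5 times. Leaving out each library in turn gave, as higher and lower, 3392 to 3941 and 1784 to 2229 on average, 1582 to 2149 and 1601 to 2551 in serum, 2083 to 3153 and 982 to 1548 against a2i/L, 804 to 1027 and 439 to 660 in both pairs, 933 to 1284 and 1644 to 2470 for the difference, 1382 to 1698 and 760 to 891 separated, 5511 to 6605 and 1252 to 2172 at passage 20, and 1573 to 2330 and 3109 to 4279 on return. The lowest, 982 against a2i/L and 1601 in serum, came without 2i/L of J-34 and without S/L+PD of J-37. Averages near 0 changed sign: Axin2 was 0.0318 with a pseudocount of 1 CPM, 2.08 with passage 10 only, and -0.2009 to 0.0731 with 1 library left out, positive without S/L+PD of J-37. Klf4 ranged from -0.0635 to 0.0147 with 1 library left out, positive without S/L of J-35, 2i/L of J-34 or PKCi/L of J-34, and was 0.0315 without PKCi/L. With passage 10 only Dnmt1 was 0.108 and Otx2 -1.02. The cause was not tested. Depth limits genes at or near 0 CPM, whose fold changes depend on the pseudocount.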

Other observations

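Several genes that the rules did not separate were high or low in a single medium. Acta2, smooth muscle actin, had 113 and 75.3 CPM in S/L+PD, 0.09 and 0 CPM in 2i/L, 0.13 and 0.06 CPM in a2i/L, 0.02 and 0.05 CPM in PKCi/L and 2.82 and 2.76 CPM in S/L. The lactate exporter gene Slc16a3 had 74.9 and 77.9 CPM in 2i/L and 73.96 and 85.8 CPM in S/L+PD, against 112 and 117 CPM in a2i/L, 81.04 and 78.1 CPM in PKCi/L and 8.91 and 14.6 CPM in S/L, so it was low in S/L alone. Socs3, a feedback inhibitor of STAT3 signalling, had 19.2 and 24.9 CPM in 2i/L and 70.8 and 69.4 CPM in S/L+PD, against 113 and 104 CPM in a2i/L, 96.3 and 85.1 CPM in PKCi/L and 63.1 and 71.2 CPM in S/L, and was lowest in 2i/L. Junb, an AP-1 subunit, had 3.24 and 2.9 CPM in 2i/L and 27.5 and 20.1 CPM in S/L+PD, against 13.1 and 12.9 CPM in a2i/L, 11.6 and 11.2 CPM in PKCi/L and 9.57 and 11.1 CPM in S/L. Cdk6, a cell cycle kinase gene, had 14.2 and 13.5 CPM in 2i/L and 2.48 and 1.51 CPM in S/L+PD, against 13.3 and 12.2 CPM in a2i/L, 11.03 and 8.12 CPM in PKCi/L and 12.3 and 13.3 CPM in S/L, and was low in S/L+PD. Ccnd2, a D-type cyclin gene, had 1.47 and 1.49 CPM in 2i/L and 31.5 and 14.5 CPM in S/L+PD, against 0.79 and 0.49 CPM in a2i/L, 0.45 and 0.27 CPM in PKCi/L and 1.64 and 1.51 CPM in S/L, and was high in S/L+PD.

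The noncoding RNA Rian and its imprinted neighbour Meg3 moved side by side. Rian had 27.1 and 27.3 CPM in 2i/L and 95.5 and 76.2 CPM in S/L+PD, against 78.1 and 65.7 CPM in a2i/L, 128 and 105 CPM in PKCi/L and 50.3 and 50 CPM in S/L. Meg3 had 2.75 and 2.92 CPM in 2i/L and 11.8 and 11.9 CPM in S/L+PD, against 9.24 and 7.15 CPM in a2i/L, 17.9 and 14.1 CPM in PKCi/L and 6.25 and 5.15 CPM in S/L. Both rose in S/L+PD against S/L (Rian by 0.76 ± 0.21) and fell in 2i/L against a2i/L (-1.38 ± 0.21 and -1.37 ± 0.20), with limma adjusted p for the difference of 4.73e-07 and 4.04e-08.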
